A study of Homo sapiens with 12 samples.

Results

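The genes described here are 37 targets of the transcription factor p53 and genes of the DNA damage response, taken by name from a list and looked up among the 55765 gene symbols counted in 12 RNA libraries. All 37 symbols were found, and 36 of them passed the filter on low counts in every comparison. The exception was PERP, a gene of cell junctions and cell death, which had 0 to 5 reads in each library and was not tested. A count of 0 in a library allows up to 3 reads.

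The libraries were made from SH-SY5Y, a human neuroblastoma cell line that stops dividing and extends neurites when given all-trans retinoic acid (ATRA). In the co-treatment experiment, 3 cultures received ATRA and hydrogen peroxide (H2O2) together for 7 days and 3 control cultures received ATRA only. In the pre-treatment experiment, H2O2 came first, with 72 h of exposure followed by 7 days of ATRA in 3 cultures, and 3 control cultures received ATRA without H2O2. All 4 groups therefore carry the 10 μM ATRA treatment, and no untreated, undifferentiated culture was compared. The series record gives the H2O2 dose as 10 mM. The study's methods give 10 μM, chosen among several μM concentrations as the one with the least adverse effects, so the unit in the record conflicts with the study. The cells are a single tumour-derived line, and RNA was taken at the end of the ATRA treatment, so that the values describe 1 time point in each experiment.

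p53 is a transcription factor that is held low by the ubiquitin ligase MDM2 and accumulates when the kinases ATM and CHEK2 are activated by DNA breaks. It binds DNA as a tetramer and turns on genes that stop the cell cycle, repair DNA, limit oxidants, remove damaged organelles or start apoptosis. H2O2 is a classical activator of this pathway because it oxidises bases and breaks DNA strands.

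Values are read counts scaled to a common library size (CPM) with TMM factors within each experiment, so CPM of the 2 experiments were scaled separately. Differences are log2 fold changes (log2FC) of treated over control with their standard error (SE), tested with edgeR's quasi-likelihood test over all genes that passed the filter. A gene was called at a Benjamini-Hochberg false discovery rate (FDR) below 0.05, with no fold threshold. The p-values measure the spread between the libraries of a group, which may be partly technical, since the sources used here do not say how far the cultures were independent. Each group had 3 libraries, but the pre-treatment controls had 2 wherever control replicate 3 was left out, as described next.

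One library has to be described before the results. Control replicate 3 of the pre-treatment experiment stood apart from control replicates 1 and 2, with a chi-square per degree of freedom of 545 and 499 against them, whereas these 2 differed by 40.1. For each read on a gene, control replicates 1 and 2 had 0.800 and 0.830 reads outside annotated genes, whereas control replicate 3 had 0.200 and the treated libraries had 0.343 to 0.462. Small structured RNAs took 1.59% and 2.88% of the gene reads of control replicates 1 and 2, against 17.6% for control replicate 3 and 13.3% to 15.1% for treated libraries. In the co-treatment experiment these measures overlapped between the groups, at 0.263 to 0.429 reads outside genes per gene read. Reads on genes ranged from 27576276 to 63182696 per co-treatment library and from 41780221 to 98287391 per pre-treatment library. Pre-treatment calls are given with control replicates 1 and 2 only (5 libraries, those in the study's clustering) and set beside the values with all 6 libraries.

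Because the listed genes are known for p53 binding, sequences that match the p53 consensus are shown first, for the genes that the results below turn on. The consensus consists of 2 half-sites of 10 bases, each with a 4-base core of C, 2 bases that are A or T, and G (CWWG). It reads the same on both strands. The region from 3 kb before to 3 kb after the start of the canonical transcript was searched in the GRCh37 (hg19) genome for 20-base matches. At most 2 mismatches were allowed, and none at the C or G of a core. The 2 middle bases of a core could mismatch, as in the EDA2R (CGTG) and MDM2 (CACG) matches below. Sequences are written 5′ to 3′ on the strand of the gene, with the cores in capitals.

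The 5 genes called in the co-treatment experiment each held at least 1 match. Counted in bases from the start of the transcript, the CDKN1A match was centred at -2255 and the PLK2 match at -2198, while those of DRAM1, SPATA18 and EDA2R lay in introns of the canonical transcripts. The CDKN1A match also overlapped an exon of another CDKN1A transcript.
CDKN1A, chr6:36644226-36644245, + strand, 2 mismatches: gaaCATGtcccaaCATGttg
PLK2, chr5:57758101-57758120, - strand, 0 mismatches: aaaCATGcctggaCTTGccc
DRAM1, chr12:102273972-102273991, + strand, 2 mismatches: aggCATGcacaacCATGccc
SPATA18, chr4:52918123-52918142, + strand, 2 mismatches: ggaCATGtgtgtaCATGccc
EDA2R, chrX:65858555-65858574, - strand, 1 mismatch: gaaCATGcctggaCGTGtcc

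Matches of similar quality were found in genes that were called in neither experiment. They are shown for GADD45A, MDM2 and ZMAT3, where they lay in introns of the canonical transcripts.
GADD45A, chr1:68152458-68152477, + strand, 1 mismatch: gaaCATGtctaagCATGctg
MDM2, chr12:69202703-69202722, + strand, 2 mismatches: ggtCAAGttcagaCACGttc
ZMAT3, chr3:178787976-178787995, - strand, 0 mismatches: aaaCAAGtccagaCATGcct

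Matches of 3 genes called only in the 5-library pre-treatment comparison complete the set. The AEN match ended just before the start, that of CCNG1 lay in an intron, and that of GADD45B overlapped an exon.
AEN, chr15:89164537-89164556, + strand, 2 mismatches: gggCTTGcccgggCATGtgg
CCNG1, chr5:162864932-162864951, + strand, 1 mismatch: gcaCAAGcccaggCTAGtcc
GADD45B, chr19:2478019-2478038, + strand, 2 mismatches: agaCTTGgttgaaCTTGgtt

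A match with up to 2 mismatches was found for 17 of the 36 genes whose canonical start could be placed (47.2%), and in 923 of 19819 windows of all genes searched the same way (4.7%). With at most 1 mismatch the shares were 19.4% and 0.6%. Genes enter such lists partly because a p53 site is known near them, so the higher share was part of their choice. In the co-treatment experiment 5 of the 5 called genes and 12 of the 30 searched genes that were not called held a match. In the 5-library pre-treatment comparison the shares were 6 of 9 searched genes called and 11 of 26 not called. FAS had no canonical transcript in the annotation used and was not searched. A match describes letters only and does not show binding.

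With H2O2 present throughout differentiation, 5 of the 36 tested genes rose and none fell. They were CDKN1A, which encodes the cyclin-dependent kinase inhibitor p21, the stress kinase PLK2, the lysosomal autophagy gene DRAM1, the mitochondrial quality-control gene SPATA18 and the TNF receptor family member EDA2R. Their log2FC lay between 1.05 and 1.92. Among all 22089 genes tested, 0.335% were called higher and 0.263% lower, against 13.9% of the 36 called higher. The median log2FC of the 36 was 0.22, with 29 positive and 7 negative values, beside a median near 0 for all genes. Every treated library lay above every control library for 12 of the 36 genes, which occurred in 6.66% of all genes tested, and the reverse occurred for 0. The same 5 genes were called with each other scaling of library size, with limma-voom and with robust estimation. The count was 9 with the exact test, with DESeq2 or without the filter, each of which added FAS, TNFRSF10A, TP53I3 and AEN. Over all genes these called 333 of 22089, 342 of 22085 and 535 of 37237, against 132 in the main test. The count was 1 (PLK2) without treated replicate 3, where 18 of 22959 genes were called. It was 4 without control replicate 2 (49 of 23016 genes) or treated replicate 2 (54 of 22771), where SPATA18 was not called. It was also 4 in 1 fit over both experiments (39 of 25668 genes), which did not call PLK2. These counts thus moved in the same direction as those of all genes.

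**Figure D1:**
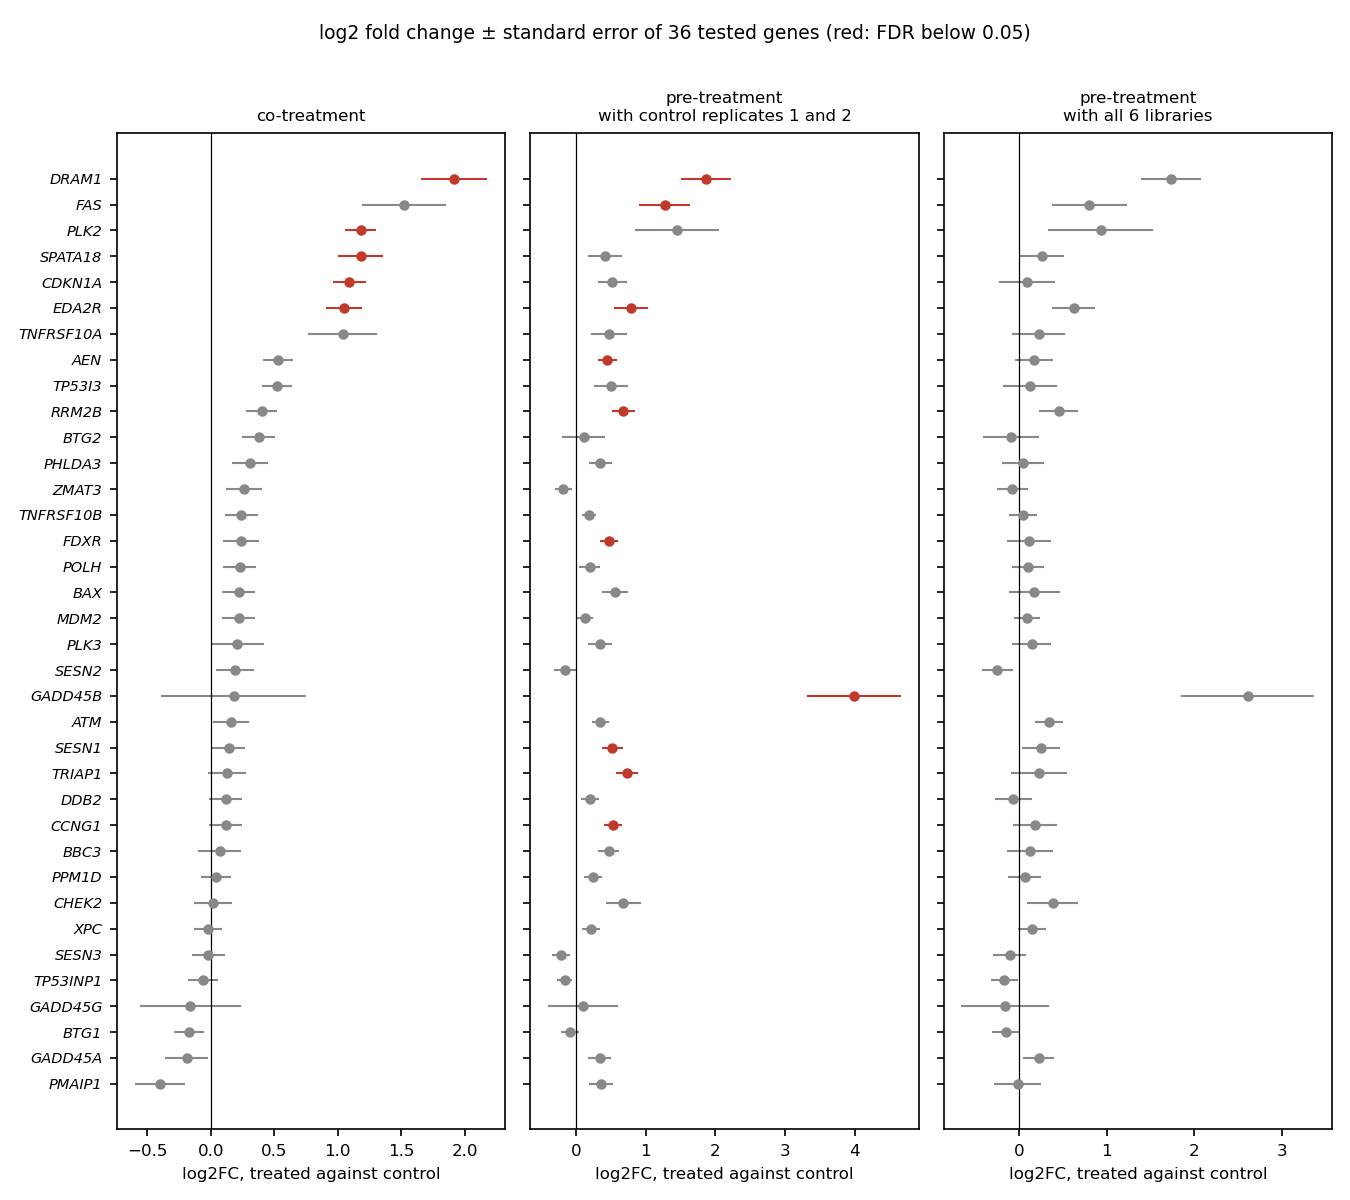
Dots give the log2FC of treated over control libraries and bars its standard error for the 36 tested genes (vertical axis, in the order of the co-treatment values) in 3 comparisons; red marks an FDR below 0.05. The co-treatment panel has 5 red dots, from EDA2R at 1.05 to DRAM1 at 1.92, the panel with control replicates 1 and 2 has 10, and the panel with all 6 libraries has 0.

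After H2O2 given before differentiation, 10 of the 36 genes rose and none fell in the 5-library comparison. They were DRAM1, EDA2R, GADD45B, the death receptor gene FAS, the ribonucleotide reductase subunit RRM2B, the exonuclease gene AEN, the cyclin G gene CCNG1, the survival factor TRIAP1, SESN1 and FDXR. The same comparison called 13.2% of all 26350 genes higher and 12.8% lower, so the 27.8% of the 36 called higher has to be read against a background far larger than that of the co-treatment experiment. The median log2FC was 0.39 for the 36 and 0.01 for all genes. Every treated library lay above control replicates 1 and 2 for 22 of the 36 genes and below both for 2, and treated libraries lay above in 27.7% of all genes. GADD45B passed the filter through its treated libraries only, so it could enter the comparison only by being higher there.

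The 10 calls depended on the libraries and on the scaling. With all 6 libraries the quasi-likelihood test called 0 of the 36 genes, 3 had an unadjusted p below 0.05 (DRAM1, GADD45B and EDA2R), and 0.0242% of all 24743 genes were called higher. DESeq2 called 2 (DRAM1 and GADD45B), the exact test, a fit without the filter and a joint fit of both experiments called DRAM1 alone, and limma-voom called 0. Over all genes DESeq2 called 705 of 24715, the exact test 271 of 24743 and limma-voom 0. The fit without the filter called 319 of 41298 and the joint fit 68 of 24407. Treated libraries then lay above all 3 controls for 5 of the 36 genes and below them for 1, where 8.42% of all genes lay above. Among the 5 libraries, leaving out treated replicate 1 left 2 calls (DRAM1 and GADD45B), beside 3235 of all 25957 genes. Leaving out treated replicate 2 left 3 (these and TRIAP1), beside 4021 of 25988 genes. Leaving out treated replicate 3 gave 13, beside 8577 of 25881 genes. Without control replicate 1 or 2 a single control library remains, so calls of those fits are not counted here. Upper-quartile factors left 5 and library size alone left 3 higher (DRAM1, GADD45B and TRIAP1) and 2 lower (SESN3 and TP53INP1). These scalings moved the median log2FC of all genes to -0.10 and -0.21, and changed the share of calls in the higher direction from 50.8% to 34.8% and 22.1%.

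Control replicate 3 differed from the other controls in a recurrent direction for these genes. It lay above both other controls in 30 of the 36 (83.3%), compared with 39.4% of all genes tested, and above all 3 treated libraries in 19 (52.8%), compared with 30.5%. It lay below all treated libraries for 6 genes, namely MDM2, DRAM1, GADD45B, ZMAT3, EDA2R and ATM. Among the 10 called genes it was above all treated libraries for 5, within their range for 2 and below them for 3. Whether the composition of the libraries accounts for this was not tested.

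**Figure D2:**
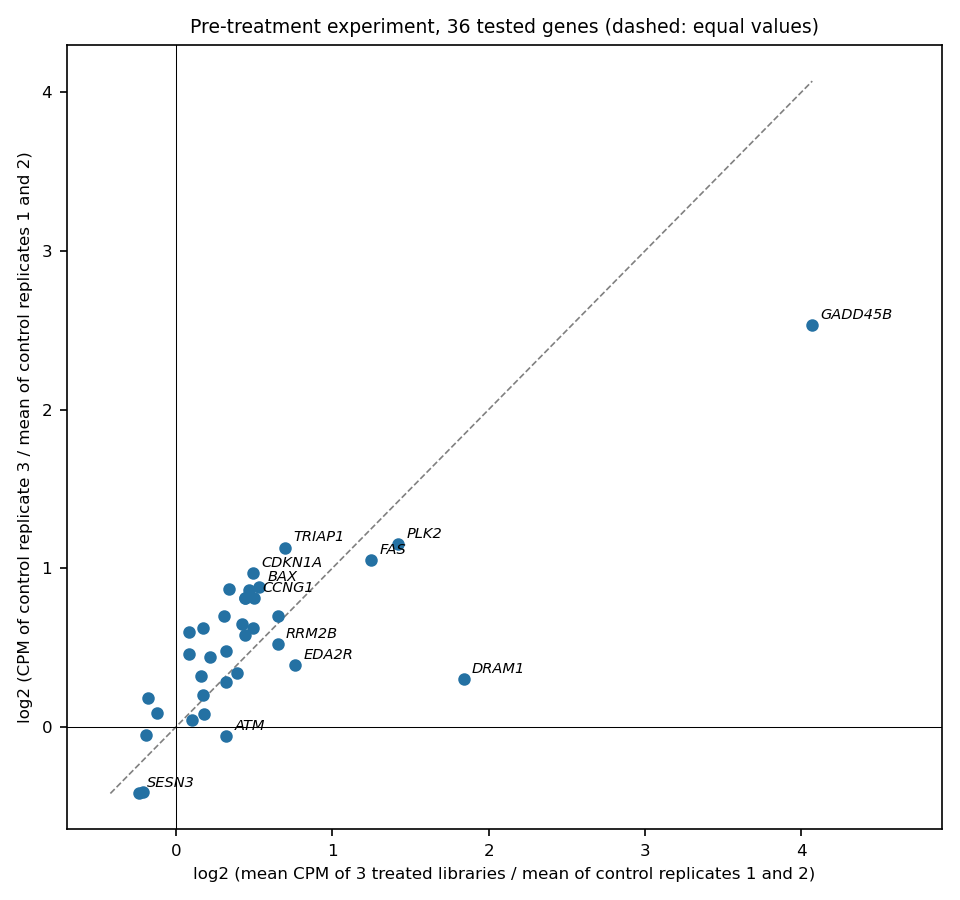
Each dot is 1 of the 36 tested genes in the pre-treatment experiment. The horizontal axis gives the log2 ratio of the mean CPM of the 3 treated libraries to the mean of control replicates 1 and 2, the vertical axis the same ratio for control replicate 3, and the dashed line marks equal values; CDKN1A lies above the line (0.49 and 0.97), whereas DRAM1 (1.84 and 0.30) and GADD45B (4.07 and 2.53) lie below it.

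The responses of the 2 experiments were compared as the interaction of treatment and experiment in 1 fit of 11 libraries. Of the 36 genes, 1 differed, GADD45B, whose log2FC was 3.74 ± 0.99 (SE) higher in the pre-treatment experiment (FDR = 0.0355), and 8.02% of all 25668 genes differed. This call was lost with limma-voom, with all 12 libraries (FDR = 0.538), and without control replicate 2 or 3 or treated replicate 2 of the co-treatment experiment, or control replicate 1 or 2 or treated replicate 1 or 2 of the pre-treatment experiment. The next smallest FDR belonged to SPATA18 (log2FC difference -0.81 ± 0.29, FDR = 0.0935). The difference for CDKN1A was -0.62 ± 0.25 (FDR = 0.126). DRAM1 and EDA2R, the only genes called in both the co-treatment and the 5-library pre-treatment comparisons, had differences of -0.11 ± 0.44 and -0.32 ± 0.27.

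**Figure D3:**
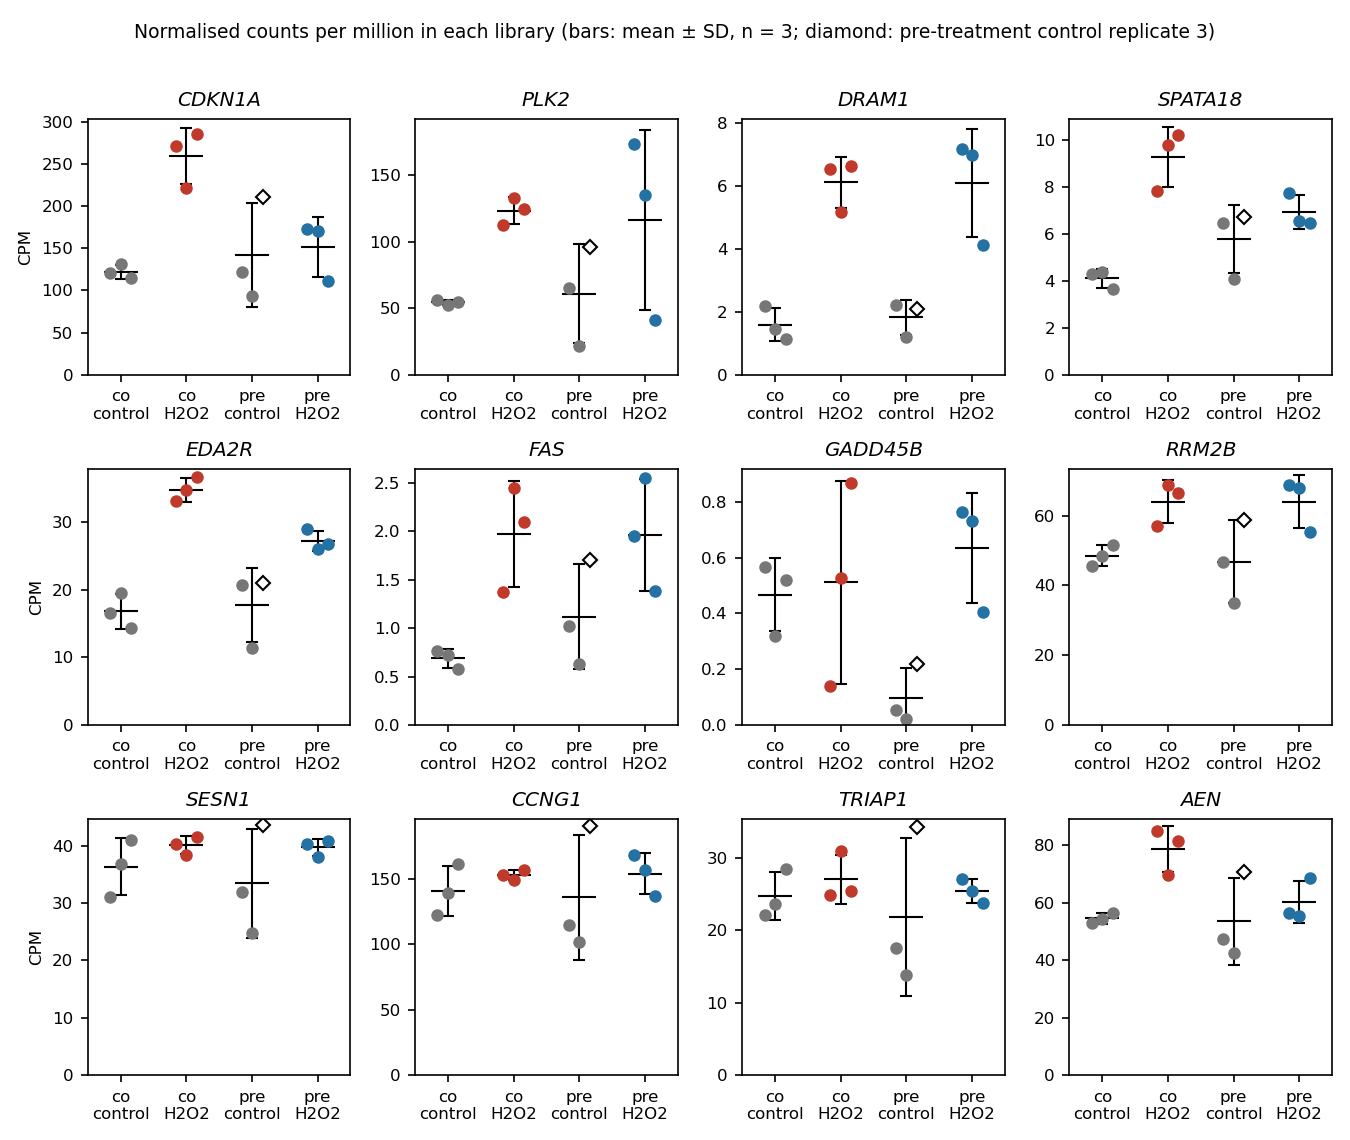
CPM of 12 of the genes in each library (dots, vertical axis from 0) with the mean and SD of each group of 3 (horizontal line and bar); the open diamond is control replicate 3 of the pre-treatment experiment. For CDKN1A, PLK2, DRAM1, SPATA18, EDA2R and FAS the treated co-treatment libraries lie above all controls, whereas in the pre-treatment experiment the diamond reaches or exceeds the treated libraries for CDKN1A, SESN1, CCNG1, TRIAP1 and AEN.

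The first role is cell cycle arrest. CDKN1A had 121, 131 and 115 CPM in the co-treatment controls and 272, 222 and 285 CPM in the treated libraries, so the lowest treated value was well above the highest control. Its mean rose from 122 ± 8.21 to 260 ± 33.3 CPM (SD, n = 3 each), a log2FC of 1.09 ± 0.13 (SE, FDR = 0.00349). With H2O2 before differentiation, control replicates 1 to 3 had 122, 93.7 and 211 CPM and the treated libraries 173, 171 and 111 CPM. These groups overlapped, with control replicate 3 highest of all and treated replicate 3 below control replicate 1. The log2FC was 0.52 ± 0.21 (FDR = 0.0952) over 5 libraries and 0.09 ± 0.32 (FDR = 0.926) over 6, where its sign changed in 3 of the alternative fits.

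PLK2, a polo-like kinase induced by stress, was the gene with the smallest FDR of the 36 in the co-treatment experiment. It had 55.9, 52.6 and 55.1 CPM in controls and 113, 133 and 125 CPM in treated libraries, so that the groups were far apart. The log2FC was 1.18 ± 0.12 (FDR = 0.00126), and 1 fit over both experiments gave the same log2FC without a call (FDR = 0.391). PLK2 varied widely in the pre-treatment experiment, with 65.2, 21.7 and 96.4 CPM in controls and 173, 135 and 41.2 CPM in treated libraries. Treated replicate 3 lay below 2 of the controls, and the log2FC was 1.45 ± 0.60 (FDR = 0.108) over 5 libraries and 0.93 ± 0.60 (FDR = 0.593) over 6. Without treated replicate 3, PLK2 and CDKN1A were both called in the 5-library comparison. The related kinase gene PLK3 had 10.0, 7.46 and 9.38 CPM in co-treatment controls against 12.3, 7.53 and 11.3 CPM, and 8.60, 7.50 and 11.2 CPM in pre-treatment controls against 9.28, 10.8 and 9.99 CPM. Its groups overlapped in both experiments and it was not called in any of the comparisons.

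BTG1 and BTG2 encode antiproliferative proteins of the same family. BTG2 had 68.1, 65.4 and 57.6 CPM in co-treatment controls and 89.4, 72.2 and 86.3 CPM in treated libraries. The groups did not overlap, but the log2FC of 0.38 ± 0.13 did not pass the threshold (FDR = 0.381). The pre-treatment values of BTG2 were 75.1, 63.8 and 95.5 CPM in controls and 93.7, 86.1 and 40.0 CPM in treated libraries, with treated replicate 3 the lowest of the 6. BTG1 had 43.1, 45.7 and 42.0 CPM in co-treatment controls against 42.4, 34.3 and 39.8 CPM in treated libraries, and 36.5, 44.7 and 43.1 against 35.3, 39.1 and 37.9 CPM in the pre-treatment experiment. Its groups overlapped in both.

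The GADD45 genes encode small proteins that bind p21, PCNA and stress kinases. GADD45A, the classical p53 target of the family, had 18.9, 17.7 and 14.1 CPM in co-treatment controls and 16.1, 16.3 and 12.1 CPM in treated libraries, a log2FC of -0.19 ± 0.17 (FDR = 0.859). Pre-treatment libraries had 14.0, 12.6 and 16.2 CPM in controls and 14.9, 16.3 and 18.5 CPM in treated libraries, a log2FC of 0.34 ± 0.16 over 5 libraries (FDR = 0.147) and 0.22 ± 0.18 over 6. The groups overlapped in both experiments once all libraries were used. GADD45G had 0.545, 1.02 and 0.635 CPM against 0.668, 0.591 and 0.713 CPM, and 0.431, 0.368 and 0.606 CPM against 0.297, 0.656 and 0.318 CPM, with wide overlap.

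GADD45B, which is also induced by TGF-beta and NF-kB signalling, differed most in the pre-treatment experiment but rested on few reads. Control replicates 1 to 3 had 3, 1 and 14 reads and the treated libraries 72, 49 and 32 reads, or 0.0538, 0.0217 and 0.217 CPM against 0.764, 0.731 and 0.407 CPM. All treated libraries lay above all controls. The ratio of summed, depth-scaled counts was 16.2 with control replicates 1 and 2 (95% counting interval 6.21 to 60.3, from 4 control and 153 treated reads) and 5.89 with all 3 controls (3.60 to 10.2). These intervals cover counting error only. The fitted log2FC was 3.99 ± 0.67 (FDR = 0.00522) over 5 libraries and 2.61 ± 0.76 (FDR = 0.320) over 6. In the co-treatment experiment GADD45B had 0.565, 0.318 and 0.519 CPM in controls and 0.141, 0.527 and 0.867 CPM in treated libraries, which overlapped, and the log2FC was 0.18 ± 0.57. The control level of the pre-treatment experiment was thus below every library of the co-treatment experiment in control replicates 1 and 2, although the 2 experiments were scaled separately.

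The second role is feedback on p53. MDM2, the main inhibitor of p53 and itself a p53 target, had 98.1, 87.4 and 87.3 CPM in co-treatment controls and 105, 91.2 and 121 CPM in treated libraries. The pre-treatment libraries had 109.6, 109.6 and 113 CPM of MDM2 in controls and 115, 113 and 125 CPM in treated libraries. Its log2FC was 0.22 ± 0.13 (FDR = 0.763) and 0.13 ± 0.11 (FDR = 0.379, 5 libraries; 0.09 ± 0.15 over 6), and in the pre-treatment experiment its sign changed when library size alone was used. PPM1D, the phosphatase WIP1 that dephosphorylates p53 and ATM, had a log2FC of 0.04 ± 0.12 with co-treatment and, with pre-treatment, of 0.25 ± 0.13 over 5 libraries and 0.06 ± 0.19 over 6. CCNG1, a cyclin that acts on MDM2 through a phosphatase, had 122, 139 and 161 CPM in co-treatment controls against 152, 149 and 157 CPM in treated libraries. The pre-treatment values of CCNG1 were 115, 102 and 191 CPM in controls and 168, 156 and 137 CPM in treated libraries. It rose by a log2FC of 0.53 ± 0.13 (FDR = 0.0193) over 5 libraries, whereas control replicate 3 was the highest of the 6 and the log2FC over 6 was 0.18 ± 0.25 (FDR = 0.806).

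The third role is cell death, through receptors at the cell surface or through mitochondria. EDA2R, a receptor for ectodysplasin, had 16.5, 19.5 and 14.4 CPM in co-treatment controls and 33.1, 34.8 and 36.7 CPM in treated libraries. The log2FC was 1.05 ± 0.14 (FDR = 0.00546), with a wide gap between the groups. The pre-treatment controls had 20.8, 11.4 and 21.1 CPM of EDA2R and the treated libraries 29.0, 26.1 and 26.7 CPM, and all treated libraries lay above all 3 controls. The log2FC was 0.79 ± 0.24 (FDR = 0.0411) over 5 libraries and 0.62 ± 0.25 (FDR = 0.412) over 6.

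FAS encodes the receptor for the Fas ligand and was at a low level in all libraries. It had 0.767, 0.720 and 0.577 CPM in co-treatment controls and 1.37, 2.44 and 2.1 CPM in treated libraries, without overlap (log2FC 1.52 ± 0.33, FDR = 0.0686). The pre-treatment controls had 1.02, 0.629 and 1.71 CPM and the treated libraries 1.95, 2.55 and 1.39 CPM. The log2FC was 1.27 ± 0.37 (FDR = 0.0368) over 5 libraries and 0.80 ± 0.43 (FDR = 0.529) over 6, where control replicate 3 exceeded treated replicate 3. In the annotation, 36.4% of the exonic bases of FAS lie opposite ACTA2 or another gene on the other strand, and reads could be shared if strand was not used in counting. TNFRSF10A, a receptor for TRAIL, had 1.51, 1.55 and 1.96 CPM in co-treatment controls against 3.20, 2.60 and 4.49 CPM in treated libraries (log2FC 1.04 ± 0.27, FDR = 0.166), again without overlap. Its more abundant neighbour TNFRSF10B, the other TRAIL death receptor, had a log2FC of 0.24 ± 0.13 (FDR = 0.713).

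The genes of the mitochondrial death route varied less in the co-treatment experiment. BAX, which permeabilises the outer mitochondrial membrane, had 46.9, 47.0 and 49.5 CPM in controls and 60.8, 47.3 and 58.5 CPM in treated libraries, overlapping the controls in treated replicate 2. BBC3, which encodes PUMA, had 18.1, 19.1 and 17.1 CPM against 22.2, 14.2 and 20.8 CPM, and PMAIP1, which encodes NOXA, had 17.6, 22.5 and 32.5 CPM against 20.4, 17.6 and 16.9 CPM. None of these 3 was called, with log2FC of 0.22 ± 0.13, 0.07 ± 0.17 and -0.40 ± 0.20, the last being the lowest value of the list. With H2O2 before differentiation BAX had 34.9, 25.1 and 55.2 CPM in controls and 51.0, 42.4 and 36.8 CPM in treated libraries. BBC3 had 12.9, 13.3 and 23.1 CPM against 15.8, 18.9 and 18.9 CPM, and PMAIP1 had 21, 15.6 and 33.4 CPM against 24.6, 22.6 and 22.0 CPM. For all 3 genes the treated libraries lay above control replicates 1 and 2 and below control replicate 3. Over 5 libraries their log2FC were 0.56 ± 0.19 (FDR = 0.0605), 0.47 ± 0.15 (FDR = 0.0533) and 0.36 ± 0.17 (FDR = 0.139), and over 6 they were 0.17 ± 0.29, 0.12 ± 0.26 and -0.02 ± 0.27.

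Other genes of this role are regulators of apoptosis. AEN, a p53-induced nuclease, had 52.9, 54.4 and 56.5 CPM in co-treatment controls and 85.2, 69.7 and 81.3 CPM in treated libraries (log2FC 0.53 ± 0.12, FDR = 0.0951). With H2O2 first it had 47.2, 42.6 and 70.7 CPM in controls and 56.6, 55.5 and 68.7 CPM in treated libraries, and was called over 5 libraries only (log2FC 0.45 ± 0.14, FDR = 0.0421, against 0.17 ± 0.22 over 6). TRIAP1, which favours survival by limiting caspase activation, had 22.1, 23.7 and 28.4 CPM against 24.8, 30.9 and 25.4 CPM in the co-treatment experiment, with overlap. TRIAP1 had 17.5, 13.8 and 34.2 CPM in pre-treatment controls and 27.1, 25.4 and 23.8 CPM in treated libraries, a log2FC of 0.73 ± 0.16 (FDR = 0.0130) over 5 libraries and 0.22 ± 0.32 (FDR = 0.810) over 6. Control replicate 3 was therefore above every treated library for this gene. TP53I3, a quinone oxidoreductase gene linked to oxidant production, had co-treatment controls at 52.9 to 62.3 CPM and treated libraries at 77.9 to 89.6 CPM (log2FC 0.52 ± 0.12, FDR = 0.110). PHLDA3, an inhibitor of AKT, and ZMAT3, an RNA-binding protein gene, had co-treatment log2FC of 0.31 ± 0.14 and 0.26 ± 0.14 and were not called. In the annotation, 18.4% of the exonic bases of PHLDA3 are shared with a gene on the same strand.

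The fourth role is stress defence and autophagy, which held the largest log2FC of the 36 genes in the co-treatment experiment. DRAM1, a lysosomal membrane protein that promotes autophagy, had 2.18, 1.46 and 1.15 CPM in co-treatment controls and 6.54, 5.18 and 6.63 CPM in treated libraries. The means rose from 1.60 ± 0.527 to 6.12 ± 0.815 CPM (SD, n = 3 each), a log2FC of 1.92 ± 0.26 (FDR = 0.00605). DRAM1 had 2.21, 1.19 and 2.097 CPM in pre-treatment controls and 7.17, 6.99 and 4.12 CPM in treated libraries. All treated libraries lay above all 3 controls, and here control replicate 3 lay within the range of the other controls. The log2FC was 1.86 ± 0.36 (FDR = 0.00837) over 5 libraries and 1.73 ± 0.34 (unadjusted p = 0.000914, FDR = 0.310) over 6. SPATA18, which encodes the mitochondrial quality-control protein Mieap, had 4.30, 4.38 and 3.63 CPM in co-treatment controls and 7.81, 9.78 and 10.2 CPM in treated libraries (log2FC 1.18 ± 0.18, FDR = 0.0135). In pre-treatment libraries it had 6.48, 4.10 and 6.71 CPM against 7.76, 6.54 and 6.47 CPM, which overlapped (log2FC 0.42 ± 0.24, FDR = 0.227, over 5 libraries and 0.26 ± 0.25 over 6). TP53INP1, an autophagy and stress gene, had log2FC of -0.06 ± 0.12 with co-treatment and, with pre-treatment, of -0.16 ± 0.11 over 5 libraries and -0.17 ± 0.15 over 6.

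The sestrins limit oxidants and inhibit growth signalling through mTORC1. SESN1 had 31.1, 36.9 and 41.0 CPM in co-treatment controls and 40.4, 38.5 and 41.5 CPM in treated libraries. In the pre-treatment experiment it had 31.9, 24.9 and 43.7 CPM in controls and 40.4, 38.1 and 40.9 CPM in treated libraries, so it was called over 5 libraries (log2FC 0.52 ± 0.15, FDR = 0.0332) with control replicate 3 above every treated library, and the log2FC over 6 was 0.25 ± 0.22. SESN2 had 20.2, 16.2 and 16.5 CPM against 23.1, 18.2 and 19.2 CPM in the co-treatment experiment and 15.3, 18.8 and 19.3 CPM against 15.1, 16.4 and 13.5 CPM in the pre-treatment experiment. SESN3 had 110.3, 99.3 and 81.5 CPM against 91.6, 97.9 and 96.8 CPM, and 136, 121 and 95.9 CPM against 119, 113 and 93.5 CPM. Neither was called in these comparisons, and their log2FC over the 5 pre-treatment libraries were below 0 (-0.15 ± 0.16 and -0.21 ± 0.13) while that of SESN1 was above, and over 6 libraries they were -0.25 ± 0.18 and -0.11 ± 0.19. FDXR, a mitochondrial electron donor gene, had 25.6, 28.1 and 31.1 CPM against 36.2, 29.1 and 34.9 CPM in the co-treatment experiment. In the pre-treatment experiment FDXR had 18.2, 19.9 and 33.4 CPM in controls and 25.0, 27.1 and 25.5 CPM in treated libraries, with a log2FC of 0.47 ± 0.13 (FDR = 0.0343) over 5 libraries and 0.11 ± 0.25 over 6.

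The fifth role is DNA repair and damage signalling. RRM2B supplies deoxynucleotides for repair and had 45.6, 48.4 and 51.6 CPM in co-treatment controls and 57.0, 68.7 and 66.3 CPM in treated libraries, without overlap (log2FC 0.40 ± 0.12, FDR = 0.297). In the pre-treatment experiment it had 46.7, 34.9 and 58.7 CPM in controls and 68.8, 68.0 and 55.3 CPM in treated libraries. It rose over 5 libraries (log2FC 0.68 ± 0.16, FDR = 0.0195), whereas control replicate 3 exceeded treated replicate 3 (0.45 ± 0.22 over 6, FDR = 0.483). The nucleotide excision repair genes DDB2 and XPC and the bypass polymerase gene POLH were not called, with co-treatment log2FC of 0.12 ± 0.13, -0.02 ± 0.11 and 0.23 ± 0.13. In the annotation, 33.5% of the exonic bases of XPC lie opposite genes on the other strand.

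The kinases that signal to p53 were also not called. ATM had 202, 224 and 200.5 CPM in co-treatment controls and 194, 277 and 226 CPM in treated libraries, with overlap. Its pre-treatment values were 252, 207 and 220.5 CPM in controls and 288, 279.7 and 289 CPM in treated libraries, all above all 3 controls, with a log2FC of 0.35 ± 0.12 (FDR = 0.0715) over 5 libraries and 0.34 ± 0.16 (FDR = 0.486) over 6. CHEK2 had 12.5, 15.4 and 17.1 CPM against 14.2, 16.1 and 15.0 CPM, and 8.49, 8.13 and 13.5 CPM against 11.6, 10.0 and 17.6 CPM in the pre-treatment experiment. Its pre-treatment log2FC was 0.68 ± 0.25 (FDR = 0.0750) over 5 libraries and 0.38 ± 0.29 over 6, with treated replicate 3 highest and control replicate 3 above the other treated libraries.

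**Figure D4:**
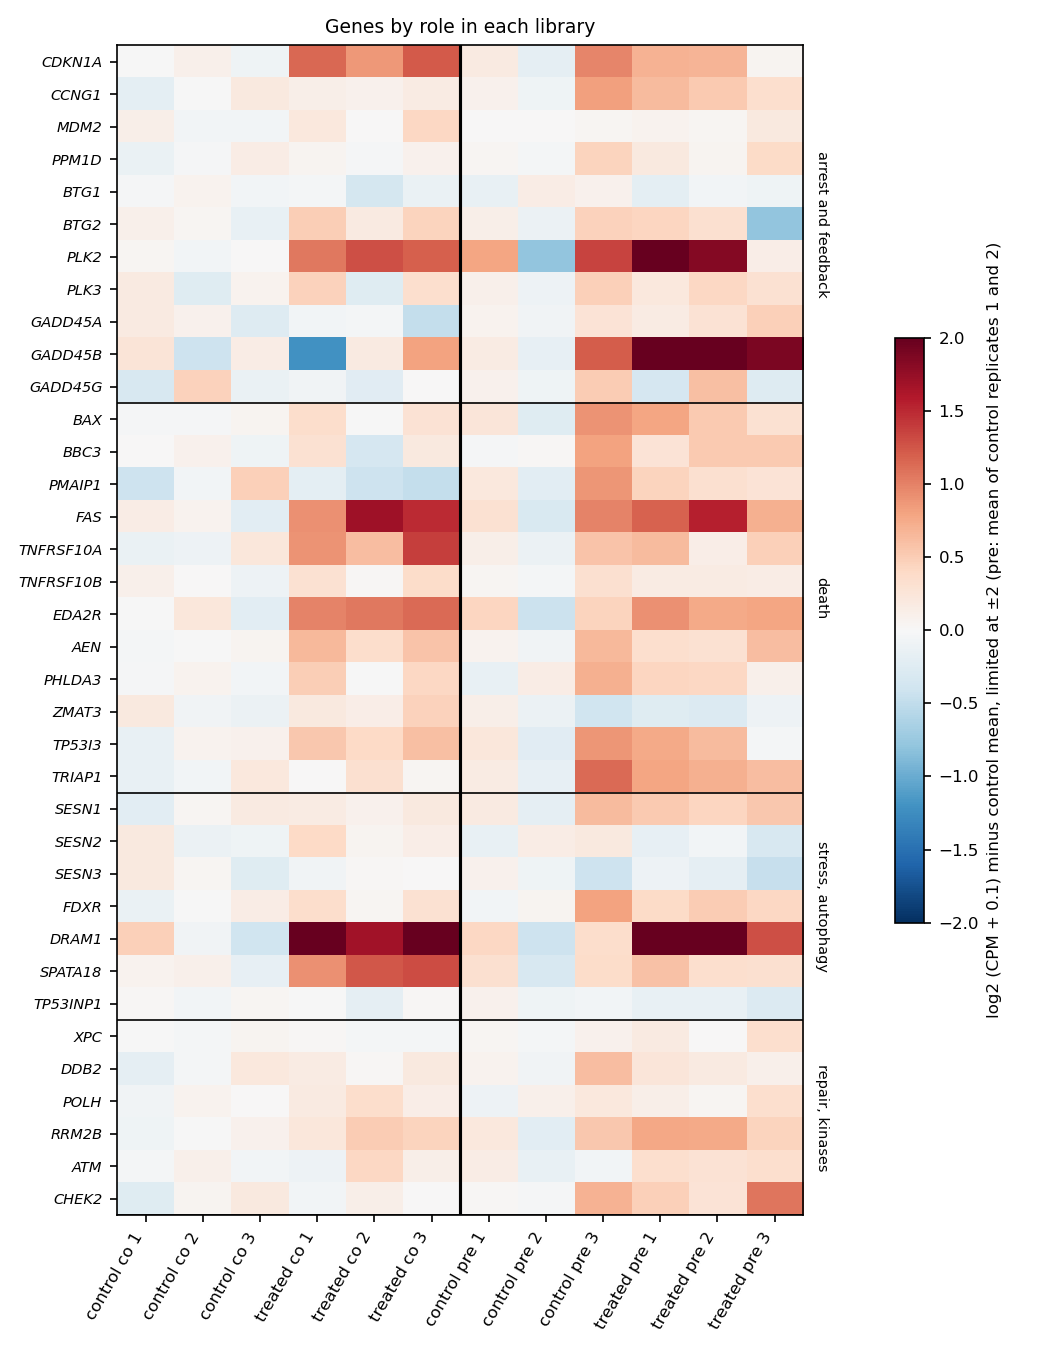
Colours give log2(CPM + 0.1) of each gene (rows, grouped by role) in each library (columns) minus the control mean of its experiment, which is the mean of control replicates 1 and 2 for pre-treatment; values beyond 2 in either direction have the end colours. CDKN1A, PLK2, FAS, TNFRSF10A, EDA2R, DRAM1 and SPATA18 are red in all 3 treated co-treatment libraries, and control replicate 3 of the pre-treatment experiment is red in most rows, lying above both other controls for 30 of the 36 genes.

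Levels were compared between genes as CPM per kb of the canonical transcript, for the co-treatment controls. Counts were per gene, so the order depends on the share of a gene's exonic bases that this transcript holds. That share was 795 of 2587 bases for BAX, 2117 of 2996 for CDKN1A and 2444 of 3096 for CCNG1. The highest levels were those of BAX (60.1), CDKN1A (57.8) and CCNG1 (57.6), and the lowest were those of DRAM1 (0.488), GADD45B (0.341) and PERP (0.00321). FAS, with no canonical transcript in the annotation used, is not in this order. The 5 genes called in the co-treatment experiment thus ranged from among the highest level, CDKN1A, over PLK2 (19.6) and EDA2R (4.87) to SPATA18 (0.927) and DRAM1. MDM2 was at 12.1 and GADD45A at 12.5.

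The rest of the pathway was described with lists that hold none of the 37 genes. In the list of p53 pathway regulators, 0 of 20 tested genes were called in the co-treatment experiment, where 0.335% of all genes were called higher and 0.263% lower. A count of 0 in so short a list is near those shares. There were 0 at an unadjusted p below 0.05 and 0 called by DESeq2, the exact test or limma-voom, with a median log2FC of -0.09. MDM4, which encodes a relative of MDM2, had a log2FC of -0.11 ± 0.12. In the 5-library pre-treatment comparison 1 of 21 rose, the acetyltransferase gene KAT5 (0.47 ± 0.14). Its level in control replicate 3 (45.5 CPM) was above all treated libraries (28.3 to 34.8 CPM). Another 7 genes fell, where 13.2% of all genes were called higher and 12.8% lower. The smallest FDR were those of the coactivators EP300 (-2.12 ± 0.17, FDR = 0.000836) and CREBBP (-2.15 ± 0.20, FDR = 0.000980) and the ubiquitin ligase gene HUWE1 (-1.40 ± 0.14, FDR = 0.00104). These falls rested on control replicates 1 and 2. EP300 had 112 and 137 CPM there, against 23.2 CPM in control replicate 3 and 23.1 to 33.3 CPM in treated libraries. CREBBP and HUWE1 likewise had control replicate 3 within the treated range, and over 6 libraries none of the 3 was called (-1.68 ± 0.54, -1.73 ± 0.53 and -1.08 ± 0.38). MDM4 had a log2FC of -0.30 ± 0.14 over 5 libraries and -0.09 ± 0.25 over 6 and was not called.

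Among further p53 targets, 3 of 46 rose in the co-treatment experiment and none fell, where 0.335% of all genes were called higher and 0.263% lower. They included the metalloreductase gene STEAP3 (1.62 ± 0.30, FDR = 0.0307) and the stress cytokine gene GDF15 (0.99 ± 0.19, FDR = 0.0367), and the median of the list was 0.15. The 5-library pre-treatment comparison called 8 of 46 higher and 5 lower, where 13.2% and 12.8% of all genes were called. RPS27L (1.02 ± 0.18), NADSYN1 (0.61 ± 0.12) and ANKRA2 (1.06 ± 0.21) led the first group, and CYFIP2 (-0.99 ± 0.14), TP53I11 (-1.33 ± 0.20) and KIAA0247 (-0.90 ± 0.15) the second. Over 6 libraries the log2FC of these 6 genes were 0.64 ± 0.28, 0.40 ± 0.19, 0.65 ± 0.30, -0.84 ± 0.22, -1.06 ± 0.34 and -0.68 ± 0.26.

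Repair genes outside the list were mostly not called in the co-treatment experiment, where 0.335% of all genes were called higher and 0.263% lower. A count of 0 in a short list is near those shares. Of 28 damage kinase and break repair genes 0 were called there by edgeR's quasi-likelihood test, DESeq2, the exact test or limma-voom, with 1 at an unadjusted p below 0.05. Of 20 base excision repair genes, which remove oxidised bases, 1 rose, the glycosylase gene NEIL2 (0.73 ± 0.14, FDR = 0.0325). In the 5-library pre-treatment comparison 9 of the 20 rose and none fell, among them the polymerase gene POLB (0.72 ± 0.13), the glycosylase gene NTHL1 (0.73 ± 0.13) and the endonuclease gene APEX1 (0.55 ± 0.12), and the median of the list was 0.48, beside 13.2% of all genes called higher. Over 6 libraries these 3 had log2FC of 0.33 ± 0.26, 0.29 ± 0.29 and 0.21 ± 0.24. Of 28 break repair genes, XRCC6, ATR and RAD17 were called higher (0.55 ± 0.11, 0.45 ± 0.12 and 0.50 ± 0.14), which at 10.7% is below the 13.2% of all genes, and PRKDC was called lower (-0.72 ± 0.20). Of 18 cell cycle genes that p21 represses through the DREAM complex, 0 were called in the co-treatment experiment by the same 4 tests, with 0 at an unadjusted p below 0.05 and a median of 0.00. In the 5-library pre-treatment comparison MKI67 (-2.10 ± 0.43), PLK1 (-1.07 ± 0.26) and FOXM1 (-1.02 ± 0.31) were called lower and 15 were not called, where 12.8% of all genes were called lower. Control replicate 3 had 107 CPM of MKI67, within the treated range of 63.6 to 191 CPM, and over 6 libraries the log2FC of the 3 genes were -1.69 ± 0.62, -1.02 ± 0.27 and -0.96 ± 0.31. With all 6 pre-treatment libraries edgeR's quasi-likelihood test and limma-voom called 0 genes of these 5 lists, with 6 regulators, 6 further targets, 1 gene of each repair list and 3 cell cycle genes at an unadjusted p below 0.05. DESeq2 called 3 regulators lower (TP73, EP300 and CREBBP), its calls in the other lists included NEIL1 higher and CYFIP2 and PLK1 lower, and the exact test called TP73 lower.

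**Figure D5:**
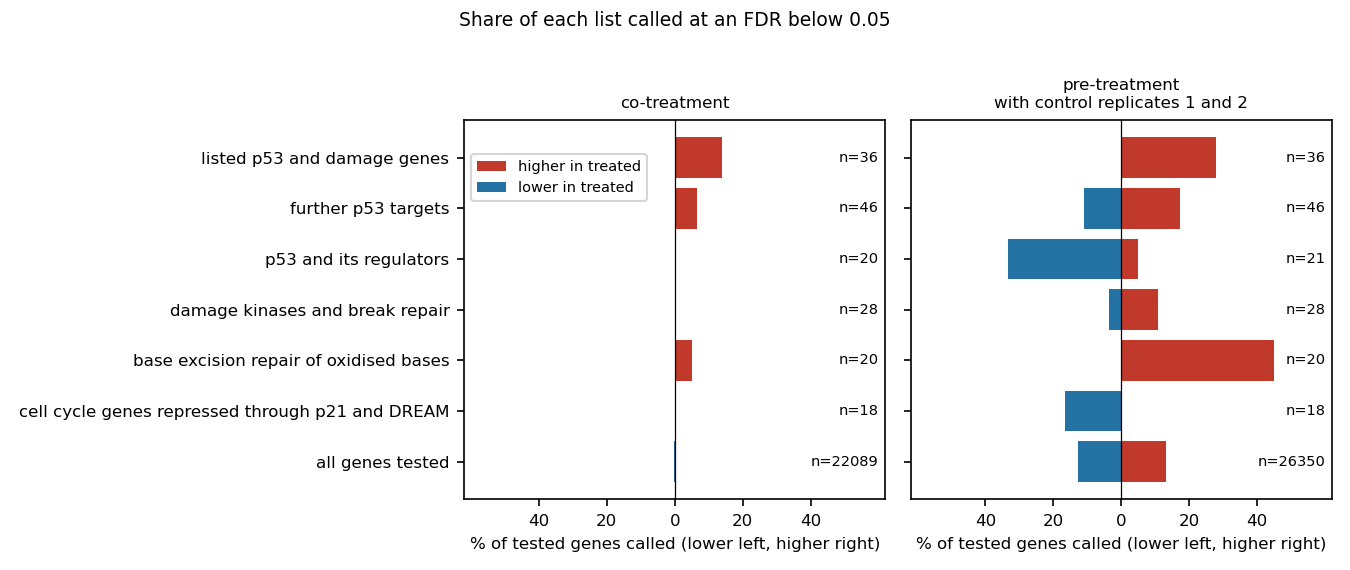
Bars give the percentage of tested genes in each list (rows, with the number tested at the right) called higher (right, red) or lower (left, blue) at an FDR below 0.05 in 2 comparisons. In the co-treatment panel the listed p53 and damage genes reach 13.9% higher beside 0.335% of all genes, and in the pre-treatment panel 27.8% beside 13.2%, while 45.0% of the base excision repair genes were called higher.

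Markers of the cell states that SH-SY5Y cultures can hold were described as well. All 12 noradrenergic markers had reads in every library. TH was near the floor, at 0.0106 to 0.260 CPM, and failed the filter in each experiment. The summed level was 3242 to 4107 CPM in co-treatment controls and 2346 to 3089 CPM in treated libraries. In the pre-treatment experiment it was 2657 to 4164 against 1905 to 2595 CPM. Of 11 tested with co-treatment, 0 were called higher and 1 lower, against 0.335% and 0.263% of all genes. The 5-library comparison called 1 of 11 higher (ISL1) and 4 lower, against 13.2% and 12.8%, and 0 were called over 6 libraries. The sum of 12 mesenchymal markers was 394 to 743 CPM against 624 to 652 CPM, and 568 to 1074 against 439 to 721 CPM, with 1 marker at 0 in each library but none at 0 in the treated pre-treatment libraries. VIM, an intermediate filament gene of that list, rose in the co-treatment experiment (log2FC 1.16 ± 0.21, FDR = 0.0272) and over all 6 pre-treatment libraries (2.42 ± 0.24, FDR = 0.0442). It was the 1 call among 10 tested mesenchymal markers with co-treatment, where 0.335% of all genes were called higher. In the 5-library comparison 5 of 11 were called higher and 1 lower (NOTCH2), against 13.2% and 12.8% of all genes. Of these, YAP1 had 0.0538 and 0.0867 CPM in control replicates 1 and 2 and passed the filter through its treated libraries only. It could therefore enter the comparison only by being higher there. COL1A2, tested but not called, entered in the same way. Over 6 libraries 2 of 10 were called higher, VIM and COL3A1, against 0.0242% of all genes, and limma-voom called 0. The 5 neuronal markers summed to 1527 to 1553 CPM in co-treatment controls and 1159 to 1492 CPM in treated libraries, and 0 of them were called there by any of the 4 tests, with 0 at an unadjusted p below 0.05. Their sum was 1288 to 1613 CPM in pre-treatment controls and 1107 to 1306 CPM in treated libraries. All 5 had a negative log2FC in the 5-library comparison, with 3 at an unadjusted p below 0.05 and 1 called lower by each of the 4 tests, and 0 were called over 6 libraries, with 1 at an unadjusted p below 0.05. The part of these markers in the values of the p53 genes was not tested, and in bulk RNA fewer cells of a type and less RNA per cell cannot be told apart.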

How the data were processed

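RNA of 12 cultures was sequenced after removal of ribosomal RNA. Per the labels and methods, the authors trimmed reads with cutadapt 2.10, aligned them to hg19 with HISAT2 2.1.0 and deposited unnormalised read counts per gene symbol made with HTSeq 0.7.2, with 5 closing entries for uncounted reads that were left out here. Strand setting and annotation version are not given in the sources used here, so overlapping genes may share reads. Deposited tables of log2 fold changes, average log2 CPM, p-values and FDR hold the authors' own comparisons and were not used.

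Counts were fitted in R 4.3.3 with edgeR 4.0.16 (TMM factors, glmQLFit, glmQLFTest). Genes were kept when their CPM reached that of 5 counts in the smallest library (0.181 in the co-treatment, 0.120 in the pre-treatment experiment) in a number of libraries equal to the size of the smaller group. p-values were adjusted over all tested genes. Groups followed the labels, and replicate numbers share no stated pairing. The alternatives were other scalings, filters, tests (DESeq2 1.42.0, limma-voom 3.58.1, exact test), a joint fit, a replicate block and each library left out. Scripts were tested on simulated data. Positions and sequences came from GRCh37 with a lifted GENCODE annotation.

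The genes given library by library are all those called in any comparison and a fixed set of arrest, death, sestrin and kinase genes, with TNFRSF10A, TP53I3 and levels per kb added after their values were seen. In the other lists up to 3 called genes per direction with the smallest p are named, with MDM4 always, and some genes under these rules are not reported here. The 37 genes and all lists were chosen with earlier results of these data known.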

Additional observations from a re-analysis of the deposited data

Results flagged for a closer look

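Of the genes named above, 10 had treatment effects that differed between the experiments in the interaction test over 11 libraries (edgeR, FDR below 0.05), given as the pre-treatment log2FC minus the co-treatment log2FC. Among the listed p53 and damage genes this was GADD45B alone (3.74 ± 0.99 SE, FDR = 0.0355). Among p53 regulators the differences were -2.18 ± 0.35 for EP300, -2.05 ± 0.39 for CREBBP and -1.47 ± 0.28 for HUWE1. Among further p53 targets they were 0.91 ± 0.25 for ANKRA2, -1.43 ± 0.29 for KIAA0247 and -1.15 ± 0.24 for CYFIP2. PRKDC differed by -0.99 ± 0.25, APEX1 by 0.97 ± 0.19 and MKI67 by -2.07 ± 0.51. With all 12 libraries, 0 of these 10 genes were called by the same test.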

How the results depend on the processing

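For the count of the 36 genes called, the co-treatment value of 5 became 9 without the filter, with DESeq2 and with the exact test, and ranged from 1 to 6 with each library left out. The 5-library pre-treatment value of 10 became 3 with a fold threshold, 5 with upper-quartile factors and 5 with library size only. It ranged from 2 to 13 with each treated library left out. With all 6 libraries the value of 0 became 1 without the filter, 2 with DESeq2, 1 with the exact test and 1 in the joint fit, and ranged from 0 to 10, the highest without control replicate 3. For the difference between the experiments the value of 1 became 2 without the filter, 2 with DESeq2, 0 with limma-voom and 0 with all 12 libraries, and ranged from 0 to 3 with each library left out. Calls over all genes moved as well. For co-treatment they went from 132 to 535, 342 and 333 in these 3 settings, and to 18 to 223 with each library left out. For the 5-library comparison they went from 6871 to 2952, 6274 and 6276. With all 6 libraries they went from 6 to 319, 705, 271 and 68. For the difference they went from 2058 to 3847, 3483, 2314 and 7. The cause was not tested.

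Residual correlations between like-numbered libraries were -0.0626, -0.0733 and -0.0660 for co-treatment. They were 0.0695 and -0.00274 for the 5-library comparison. With so few libraries in a group, the residuals of a group depend on each other. These values therefore cannot decide whether like-numbered libraries shared a culture or a batch. A replicate block gave 5 calls in the co-treatment experiment, 20 in the 5-library comparison (where it called 10755 of all 26350 genes, against 6871 without it), 0 over 6 libraries and 1 for the difference. In the 5-library comparison and the difference, treated replicate 3 of the pre-treatment experiment was alone in its block. It therefore added nothing to the treatment effect there. Leaving that library out of the 5 without a block called 8577 of all 25881 genes.

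Of 612 co-treatment log2FC values over all alternatives, 592 stayed on their side of the threshold, 0 called values changed sign and 15 uncalled values did. For the 5-library comparison 501 of 576 stayed, with 0 called and 17 uncalled values changing sign, and for the 6-library comparison 597 of 612, with 0 and 32. Low counts limit GADD45B, GADD45G, FAS and PERP. Library size alone raised the share of co-treatment calls in the higher direction from 56.1% to 71.2%.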
